A study of Mus musculus with 18 samples.

Results

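The entry of newly made mRNA into the cytoplasm was followed between 20 and 40 min of 4-thiouridine (4sU) labelling in RAW264.7 cells, an established mouse macrophage-like cell line. The comparison rests on 4 libraries of fragmented cytoplasmic RNA (input), chosen by their labels as the 20 and 40 min samples of experiments 1 and 2, out of 18 libraries in the series. Labelled cells received 200 µM 4sU, and the unlabelled input and footprint libraries of experiment 1 came from cells that the labels call untreated. All cells were grown in serum-containing medium and lysed in the presence of cycloheximide. The other libraries are input at 30 min in experiment 2, input at 60, 90 and 120 min in experiment 1, and the matching ribosome footprints. Of 14002 genes listed in any library, 8937 had a mean of at least 100 reads over the 4 libraries, and 7944 of these also had at least 10 converted reads in all and were tested.

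4sU is taken up by cells and built into RNA in place of uridine. After the chemical conversion named in the labels, periodate in ammonium chloride, a 4sU position is read as cytidine, so that a read with a T-to-C change marks RNA made during labelling. In the cytoplasm a nuclear mRNA carries label only after it has been transcribed, spliced, cut at its 3′ end and exported, whereas an mRNA transcribed inside mitochondria skips the export step. The converted share of a gene, its reads with at least 1 conversion as a percent of all its reads, is set jointly by synthesis, export and decay, and by the 4sU available to the polymerase. In bulk RNA, fewer cells that make an mRNA and less of it made per cell cannot be told apart.

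The libraries held 6840807 reads (20 min) and 6822082 reads (40 min) in experiment 1, and 48139330 and 26359243 reads in experiment 2, so that experiment 2 was counted more precisely. Nothing in the labels says whether the experiments were separate cultures, and p-values measure the spread between these libraries, which may be technical. The converted share of the whole library was 0.866% at 20 min and 2.16% at 40 min in experiment 1, and 0.813% and 1.99% in experiment 2. The unlabelled input library stood at 0.289% (95% Wilson interval 0.284 to 0.293%, counting error only). The groups did not overlap, and the share rose 2.47-fold ± 0.04 (SD, n = 2), or 3.24-fold in each experiment once the unlabelled share was taken off both times. Without mitochondrially encoded genes that rise was 3.59-fold and 4.33-fold in experiments 1 and 2. Pooled rises of gene lists are given below in the same way, each less the list's own unlabelled share. With 2 libraries a time no exact test of this ratio can reach 0.05. A share that grew in proportion to labelling time would give a ratio of 2. Reads with at least 2 conversions rose from 0.0844 to 0.400% in experiment 1 and from 0.0635 to 0.359% in experiment 2. Macrophage markers summed to between 7059 and 7614 CPM (reads scaled by library total) over the 4 libraries, while 33 markers of other cell types summed to between 0.44 and 2.54, with 22 of the 33 at 0 in all 4.

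The 12 mRNAs with the highest converted share at 20 min, among those above the unlabelled library, comprised 6 transcribed in mitochondria. The other 6 were Rgs1, Tnf, Fos, Txnip, Rgs2 and Klf10. In edgeR's quasi-likelihood test against the unlabelled library, with Benjamini-Hochberg adjustment under 0.05, 405 of 7978 genes stood above it at 20 min (5.08%) and 3325 at 40 min (41.7%). Those comparisons share the unlabelled library. Rgs1, which limits signalling by G-protein-coupled receptors, had 23.8% and 22.2% of its reads converted at 20 min in experiments 1 and 2. Tnf, the inflammatory cytokine, had 25.2% and 13.3%, and Fos, an AP-1 subunit, had 16.4% and 9.69%. Txnip encodes the thioredoxin-interacting protein and had 14.6% and 9.89%, against 0.309% in the unlabelled input. Experiment 1 was the higher of the pair for each of these 4 mRNAs.

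None of Rgs1, Tnf and Fos moved beyond the library-wide change between 20 and 40 min. Tnf reached 39.8% and 37.0% at 40 min, and its odds of conversion changed by log2 0.27 ± 0.18 (SE) relative to the library (adjusted p = 0.36). The experiments differed in sign for Tnf, at -0.37 and 0.63. Fos reached 40.0% and 31.7% (log2 0.68 ± 0.25, adjusted p = 0.054). Rgs1 reached 36.7% and 49.4%, with a log2 of 0.31 ± 0.38 (adjusted p = 0.66).

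**Figure D1:**
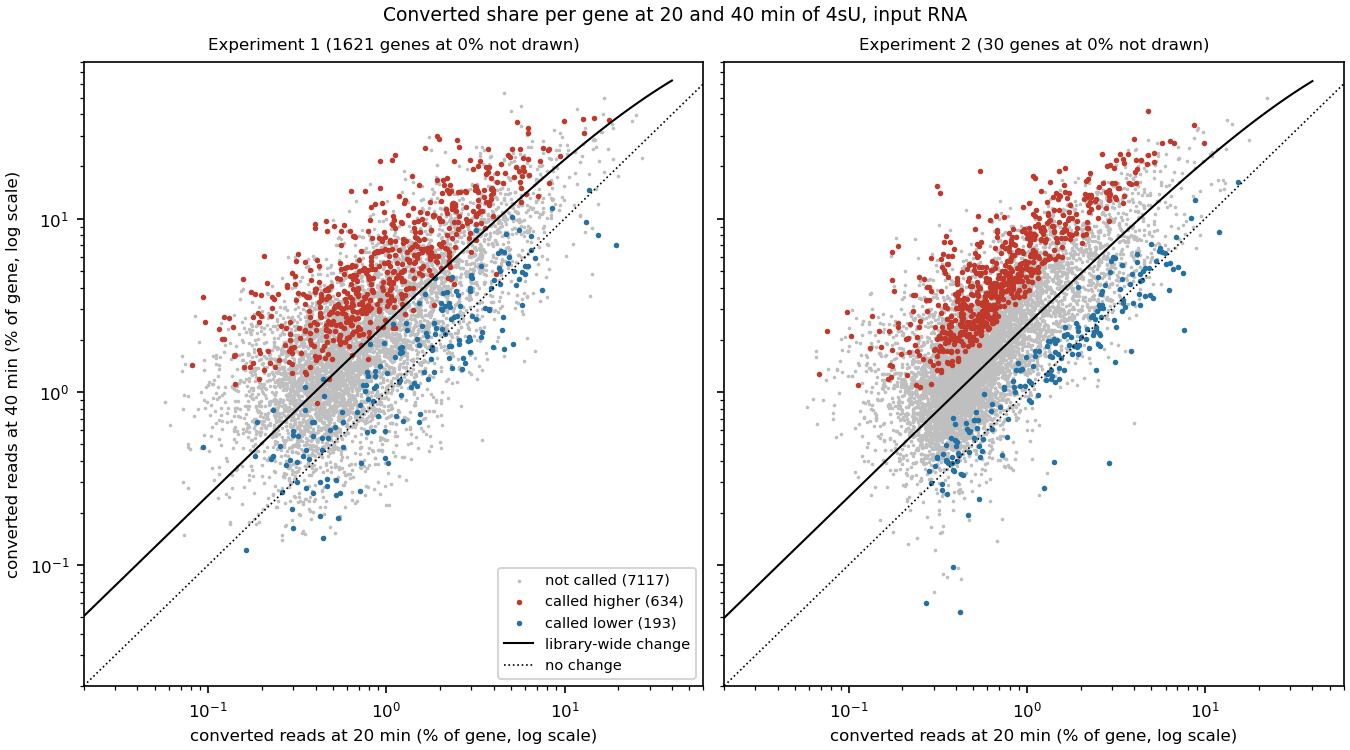
Converted share of each tested gene at 20 min (x, percent of the gene's reads, log scale) and 40 min (y, same unit) in experiments 1 and 2, with the library-wide change as a solid line and no change as a dotted line. The 634 genes called higher lie above the solid line in most cases, and most of the 193 called lower lie near the dotted line, at shares that hardly moved.

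Each gene was then set against the library-wide change, with experiments paired. The converted share rose by more than the library's for 634 of 7944 genes (7.98%) and by less, or not at all, for 193 (2.43%), and 790 of these 827 (10.4%) went the same way in both experiments. The genes called higher had a median share of 0.731% at 20 min, 4.65% at 40 min and 29.4% at 120 min. The genes called lower had medians of 1.57%, 1.70% and 5.46%. The median of all tested genes was not 0 but log2 0.30, and 0.14 with mitochondrially encoded genes left out of the library totals. Centred on the median gene the split was 225 higher and 440 lower, and without the mitochondrially encoded genes in the totals it was 364 and 286. Few calls were left when the unlabelled share was taken off in limma, 115 and 4 with the library-wide share and 162 and 29 with each gene's own, and DESeq2 called 1 and 0. Changes are therefore given below both relative to the library and beside the median gene. The calls leaned on the deepest 20 min library: without the 20 min library of experiment 2, 18 genes were higher and 19 lower. In that fit 623 of the 634 higher genes, and 180 of the 185 lower genes still measured, kept their sign. Without the 40 min library of experiment 1 the counts were 144 and 40, and without that of experiment 2 they were 120 and 36. The lists below thinned in the same way without the 20 min library of experiment 2. It left 4 zinc finger genes, 1 mitosis gene, 1 cholesterol gene, 1 NF-kB gene, 0 splicing regulators and 0 immediate-early genes called higher, with list medians of 1.01, 0.21, 0.27, 0.86, 0.72 and 0.24. Of the called mRNAs named here, Mki67, Nfkbia, Nup153, Zfp62 and Fasn stayed past the threshold whichever of the 4 libraries was left out.

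The largest relative rises among the genes named by rule included mRNAs with no or few converted reads at 20 min. A low share at 20 min favours a high rank by this measure. Genes called higher had a median of 0.731% at 20 min against 0.550% for all tested genes, and of 29.4% against 9.50% at 120 min. The part of the 20 min share in these calls was not tested. Ccdc186, a coiled-coil protein of the Golgi region (chromosome 19, 56787481 to 56822190, mm10), had 0 converted reads of 92 and 3 of 1587 at 20 min. At 40 min it had 5 of 77 and 47 of 681, which are 6.49% and 6.90%. Its log2 change was 4.06 ± 0.81 (adjusted p = 6.4e-05). Rnpc3, a protein of the minor spliceosome, went from 0% and 0.527% to 7.24% and 7.14% (log2 2.75, adjusted p = 8.5e-05).

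E2f8, a repressor of the E2F family, went from 0.885% and 0.379% to 6.50% and 6.09% (log2 2.63 ± 0.39, adjusted p = 1.5e-08). Its total level fell by 0.46 on the log2 scale between the same times (adjusted p = 0.013). Zfp62, a zinc finger protein, went from 0.761% and 0.834% to 14.5% and 8.70% (log2 2.39 ± 0.37, adjusted p = 9.9e-08). All 4 of these mRNAs had higher shares in both 40 min libraries than in either 20 min library. The library as a whole did so too, so this alone does not show a rise beyond it. The other 8 of the 12 highest were Nr1d2, Map3k8, Foxj3, Zbtb5, Usp28, Cass4, Zfp617 and Aen, with log2 changes from 2.36 (Aen) to 2.75 (Nr1d2). Of all 634 genes called higher, 6 had no converted read in either 20 min library.

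Among genes of cholesterol synthesis and its control, a minority gained label faster than the library. Of 24 tested genes in the cholesterol list, 5 rose beyond the library and 0 lagged, against 7.98% and 2.43% of all genes, with a list median of 0.38 against 0.30 for all genes. After subtraction of the library-wide or the gene's own unlabelled share, 1 or 2 were called higher. Insig1, which restrains this pathway, went from 3.06% and 1.61% to 11.1% and 8.68% (log2 1.05, adjusted p = 0.00063). Sqle, which oxidises squalene, went from 0.248% and 0.650% to 3.69% and 3.10% (log2 1.18, adjusted p = 0.0037). For both mRNAs the 20 and 40 min libraries did not overlap, which also held for the library as a whole. Pooled over the list, the share less the unlabelled share rose 5.10-fold and 5.96-fold. The libraries rose 3.24-fold, or 3.59-fold and 4.33-fold without mitochondrially encoded genes.

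Cell-division mRNAs started near the median gene, with a list median share of 0.517% at 20 min against 0.550% for all tested genes. Mki67, the proliferation antigen Ki-67 that coats mitotic chromosomes, had 0.634% and 0.421% at 20 min and 4.17% and 3.16% at 40 min (log2 1.58 ± 0.19, adjusted p = 9.1e-13). It was also 1 of the 8 genes called on reads with at least 2 conversions. Ccnb1 encodes cyclin B1, which drives entry into mitosis, and it changed by log2 1.00 (adjusted p = 0.00026). Its partner kinase Cdk1 changed by 0.65 (adjusted p = 0.023), and the spindle motor Kif11 by 0.78 (adjusted p = 0.024). In all, 7 of 26 mitosis genes rose beyond the library and 0 lagged, against 7.98% and 2.43% of all genes. The list median was 0.34 against 0.30 for all genes, and 0.90 against 0.50 less the library-wide unlabelled share. After centring on the median gene 2 were called, and after subtraction of the library-wide or the gene's own unlabelled share 4 or 3. The pooled rise less the unlabelled share was 5.13-fold and 6.82-fold.

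Most splicing regulators stood above the median gene. SR proteins bind exons and guide splice-site choice, Clk kinases phosphorylate them, and cyclin L partners with kinases that act on splicing. Of 27 tested members, 10 rose beyond the library and 0 lagged, against a background of 7.98% of genes higher, and 24 of 27 stood above the median gene. After subtraction of the library-wide or the gene's own unlabelled share, 1 or 0 were called, while the list median less the library-wide share was 1.00 against 0.50 for all genes. Clk1 went from 2.79% and 1.64% to 14.2% and 14.3% (log2 1.80 ± 0.31, adjusted p = 2.4e-06). Srsf4 went from 0.408% and 0.331% to 5.81% and 3.84% (log2 2.31, adjusted p = 0.00016). For Clk1 and Srsf4 the 20 and 40 min libraries did not overlap, which also held for the library as a whole.

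Rsrc2 (log2 1.39, adjusted p = 0.00023) and Son (0.89, adjusted p = 0.00076), an SR-rich scaffold of nuclear speckles, rose as well. The pooled share of the SR list went from 0.808% and 0.718% to 2.86% and 2.91%. Of 26 heterogeneous nuclear ribonucleoproteins, which package nascent transcripts, 4 rose and 0 lagged, against 7.98% and 2.43% of all genes. Among them Hnrnpu changed by 0.76 (adjusted p = 0.0021) and Hnrnpdl by 0.94 (adjusted p = 0.0043). That list's median was 0.26 against 0.30 for all genes, but 0.60 against 0.50 less the library-wide unlabelled share. Of 25 export factors 2 rose, a share near that of all genes. They were the nuclear pore proteins Nup153 (0.418% and 0.682% to 4.28% and 4.05%, log2 1.46, adjusted p = 1.5e-08) and Tpr (log2 0.74, adjusted p = 0.030).

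Numbered zinc finger genes, many of them DNA-binding repressors, were the longest list and held the most genes called higher. Their median share at 20 min was 1.59%, above the 0.550% of all tested genes. An unlabelled share over 1% was seen in 38 of the 184, against 587 of all 7944 genes. Of 184 tested, 52 rose beyond the library and 2 lagged, against 7.98% and 2.43% of all genes, and 162 stood above the median gene, with a list median of 1.18. The calls did not hold after background subtraction: 0 were called less the library-wide unlabelled share and 4 less the gene's own, with list medians of 0.80 and 0.91. Their pooled share was 0.590% in the unlabelled input, 1.91% and 1.27% at 20 min, and 7.86% and 6.01% at 40 min. The rise less the unlabelled share was 5.49-fold and 8.01-fold.

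Zfp207, a spindle-assembly protein, went from 0.626% and 0.397% to 3.07% and 3.65% (log2 1.72, adjusted p = 9.9e-08). Zfp367 went from 1.27% and 1.54% to 12.8% and 13.6% (log2 2.05, adjusted p = 7.3e-07). Zfp646, a gene of 1 exon, went from 1.25% and 0.894% to 12.3% and 6.59% (log2 1.78, adjusted p = 1.8e-06). It overlaps Prss53 and Zfp668 in the annotation, and strand use in the authors' counting was not given in the sources used here.

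**Figure D2:**
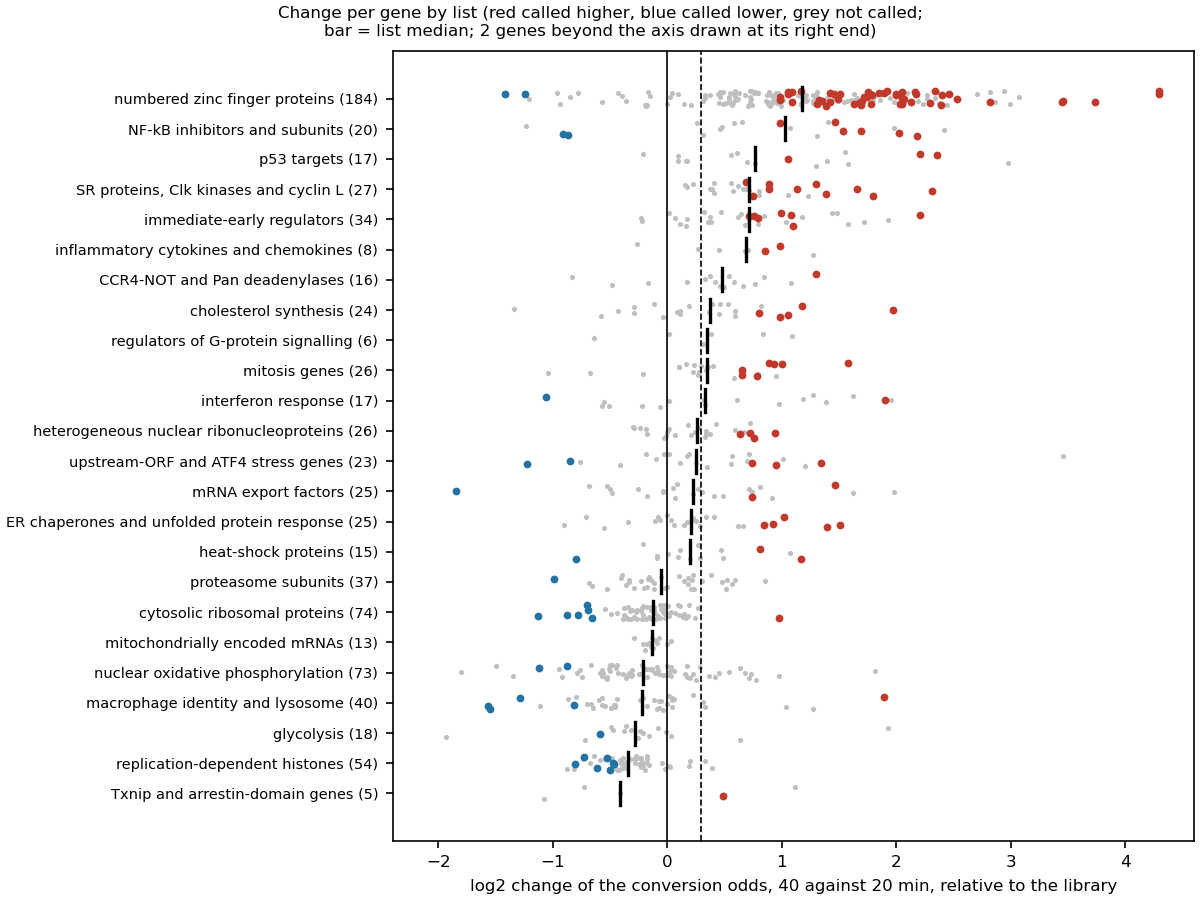
Log2 change of the conversion odds per gene from 20 to 40 min relative to the library (x), by gene list (y, members tested in parentheses), with list medians as bars, the library as a solid line and the median gene (0.30) as a dashed line. Zinc finger genes (median 1.18) and splicing regulators (0.72) sit to the right, and mitochondrially encoded (-0.13) and histone mRNAs (-0.34) sit to the left of the median gene in narrow bands.

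Some immediate-early genes carried label at 20 min, and some rose further. Immediate-early genes are transcribed within minutes of a stimulus, and their mRNAs are short-lived. Of 34 tested, 9 stood above the unlabelled library at 20 min, against 5.08% of all genes. By 40 min 7 had risen beyond the library and 0 lagged, against 7.98% and 2.43% of all genes. Klf10, a Krüppel-like repressor, went from 12.7% and 6.36% to 37.6% and 27.9% (log2 1.08, adjusted p = 0.0022). Klf6 went from 9.40% and 4.76% to 23.1% and 23.3% (log2 1.10, adjusted p = 0.015).

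Junb, an AP-1 subunit, changed by log2 0.72 (adjusted p = 0.012), and Mcl1, a short-lived survival protein of the Bcl2 family, by 0.75 (adjusted p = 0.0017). The position of the immediate-early list depended on the handling of background. Its median was 0.71 against 0.30 for all genes, but 0.18 against 0.50 after subtraction of the library-wide unlabelled share, when 0 were called. The pooled rise was 3.11-fold and 3.96-fold, and 1 of the 7 remained called after centring on the median gene.

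NF-kB induces its own inhibitors, and some of these were among the rises. Of the 20 tested genes of the NF-kB list, 1 stood above the unlabelled library at 20 min, as in 5.08% of all genes. Nfkbia encodes IκBα, which holds NF-kB in the cytoplasm (chromosome 12, 55489410 to 55492647). It had 5.62% and 3.67% at 20 min, 13.7% at 30 min (95% interval 12.8 to 14.7%) and 25.3% and 23.6% at 40 min. The change was log2 1.54 ± 0.19 (adjusted p = 7.1e-13). Tnfaip3 (A20) went from 12.9% and 4.81% to 31.1% and 41.6% (log2 2.18, adjusted p = 0.00062). Its experiments differed widely, at 0.15 and 2.47. Birc3, an inhibitor of apoptosis, changed by 2.02 (adjusted p = 0.00026) and N4bp1 by 1.69 (adjusted p = 0.0025).

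Of the 20 genes, 6 rose and 2 lagged, against 7.98% and 2.43% of all genes. After subtraction of the library-wide or the gene's own unlabelled share 0 were called higher. The lagging members were the subunit Nfkb1 (log2 -0.87, adjusted p = 0.0056) and the deubiquitinase Cyld (-0.92, adjusted p = 0.021), both named after their values were seen. Their shares in the unlabelled input were 1.58% and 1.49%. The list median was 1.02, and 0.76 less the library-wide unlabelled share. Of 8 tested cytokines and chemokines, 2 rose, against 7.98% of all genes: Ccl3 (log2 0.85, adjusted p = 0.012) and Ccl2 (0.98, adjusted p = 0.036). The pooled rise of these 8 less the unlabelled share differed between experiments, at 1.765-fold and 3.42-fold. Irf1, the early interferon-response factor, changed by 1.90 (adjusted p = 0.013) and was the only riser of 17 interferon-response genes, near the share of all genes.

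Stress-response genes were mixed. In the unfolded protein response 5 of 25 rose and 0 lagged, against 7.98% and 2.43% of all genes. Among them were Xbp1 (log2 0.92, adjusted p = 0.0015), a transcription factor made after unconventional splicing, and the chaperone Dnajb9 (1.51, adjusted p = 0.030). That list's median was 0.21 against 0.30 for all genes, but 0.77 against 0.50 less the library-wide unlabelled share. Among upstream-ORF and ATF4 genes 3 of 23 rose and 2 lagged, against the same shares of all genes. The risers were Mthfd2 (log2 1.34, adjusted p = 0.00021), the amino acid transporter subunit Slc3a2 (0.95, adjusted p = 0.0013) and Ppp1r15b (0.74, adjusted p = 0.0076). Phgdh, the first enzyme of serine synthesis, lagged (-0.85, adjusted p = 0.003).

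Atf4 itself was labelled early, with 7.30% and 4.51% at 20 min and 13.6% and 11.9% at 40 min, and did not leave the library-wide change (log2 -0.03 ± 0.16, adjusted p = 0.94). Of 17 p53 targets, 3 rose, against 7.98% of all genes, including Mdm2, which marks p53 for degradation (1.84% and 1.42% to 10.5% and 6.63%, log2 1.06, adjusted p = 0.012). Txnip rose by log2 0.49 (adjusted p = 0.036), but its value was -0.25 after subtraction of the library-wide unlabelled share.

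**Figure D3:**
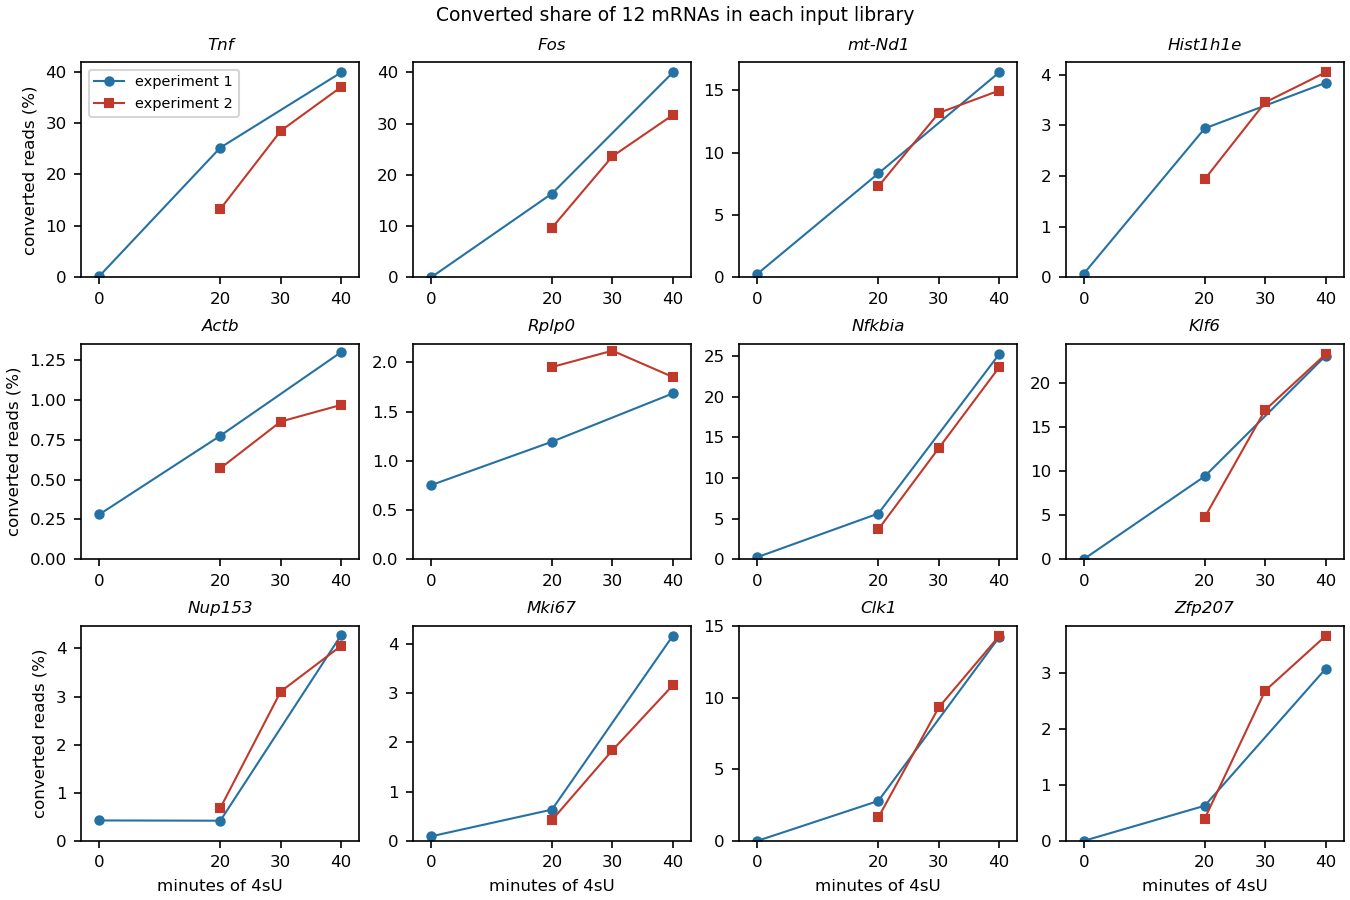
Converted share (y, percent of the gene's reads, from 0) of 12 mRNAs in each input library against minutes of 4sU (x), with experiment 1 as circles and experiment 2 as squares. Hist1h1e went from 2.94% and 1.94% at 20 min to 3.84% and 4.04% at 40 min, a smaller relative rise than that of Nup153, which went from 0.418% and 0.682% to 4.28% and 4.05%.

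Mitochondrially encoded mRNAs were labelled early and rose by a smaller factor than the library. These 13 mRNAs encode core subunits of the respiratory chain and are transcribed from the mitochondrial genome. All 13 stood above the unlabelled library at 20 min. Their pooled share was 4.98% and 4.40% at 20 min and 9.44% and 9.10% at 40 min. Less the unlabelled share the rise was 1.95-fold and 2.15-fold, against 3.24-fold for the libraries. Growth in proportion to time would give 2, but the single 30 min library of experiment 2 already had 8.07%.

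mt-Nd1 went from 8.32% and 7.28% to 16.4% and 15.0%, and mt-Nd2 from 14.9% and 10.9% to 25.9% and 22.9%. mt-Nd6, read from the opposite strand to mt-Nd5 and overlapping it, had 17.5% and 13.1% at 20 min. On reads with at least 1 conversion, none of the 13 was called in either direction. By the same measure 0 of 13 stood above the median gene (list median -0.13). Mitochondrial reads made up 16.5 to 27.8% of all converted reads in the 4 libraries, and 3.39 to 5.13% of all reads.

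Replication-dependent histone mRNAs followed a like course. Genes of this class typically have no introns, and their mRNAs typically end in a conserved stem-loop instead of a poly(A) tail. The stem-loop is shown for 3 histone genes that lagged and 1 that was not called, since it sets this class apart among nuclear genes. Sequences are from GENCODE M21 transcripts (GRCm38, the mm10 assembly), 5′ to 3′, with the stem-loop in capitals and up to 5 bases on either side.
Hist1h3f: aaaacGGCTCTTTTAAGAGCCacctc
Hist1h3c: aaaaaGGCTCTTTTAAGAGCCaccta
Hist1h1e: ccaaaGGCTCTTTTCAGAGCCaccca
Hist2h2ac: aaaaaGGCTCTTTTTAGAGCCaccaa
The letters GGCTCTTTTNAGAGCC are the 16-letter word found in the most histone types, with 1 position left free, and were searched on the sense strand only. They were present in the longest protein-coding transcript of 25 of 54 tested histone genes (46.3%). They were found in 0 of 7608 other tested genes, and in 34 of 21877 protein-coding genes (0.155%). The word and its free position were chosen on the histone transcripts themselves, so the contrast is no test. A transcript without a match lacks only these letters in its annotated extent.

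Of the 54 histone mRNAs, 41 stood above the unlabelled library at 20 min, against 5.08% of all genes, and their pooled share then was 3.55% and 3.01%. At 40 min it was 5.96% and 5.78%, a rise of 1.73-fold and 2.00-fold less the unlabelled share. Of the 54, 7 lagged behind the library, against 2.43% of all genes, and 0 rose, and 2 of 54 stood above the median gene. After subtraction of the library-wide or the gene's own unlabelled share, 0 or 1 lagged, with list medians of -0.68 and -0.71. Hist1h3f went from 4.36% and 3.41% to 4.98% and 5.43% (log2 -0.81 ± 0.22, adjusted p = 0.0052). Hist1h3c went from 4.54% and 4.13% to 6.44% and 6.23% (log2 -0.73, adjusted p = 0.0053).

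The other 5 that lagged, listed in full after their values were seen, were Hist2h2bb, Hist1h1b, Hist1h1e, Hist1h1a and Hist1h4f, between log2 -0.61 and -0.47. No histone mRNA in this group of 7 had a higher share in a 20 min library than in a 40 min library. When any 1 of the 4 libraries was left out, 0 to 2 of the 54 were called and the list median lay between -0.46 and -0.31. Histone genes of one type are near-identical copies, and how the authors' counting split such reads was not given in the sources used here.

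**Figure D4:**
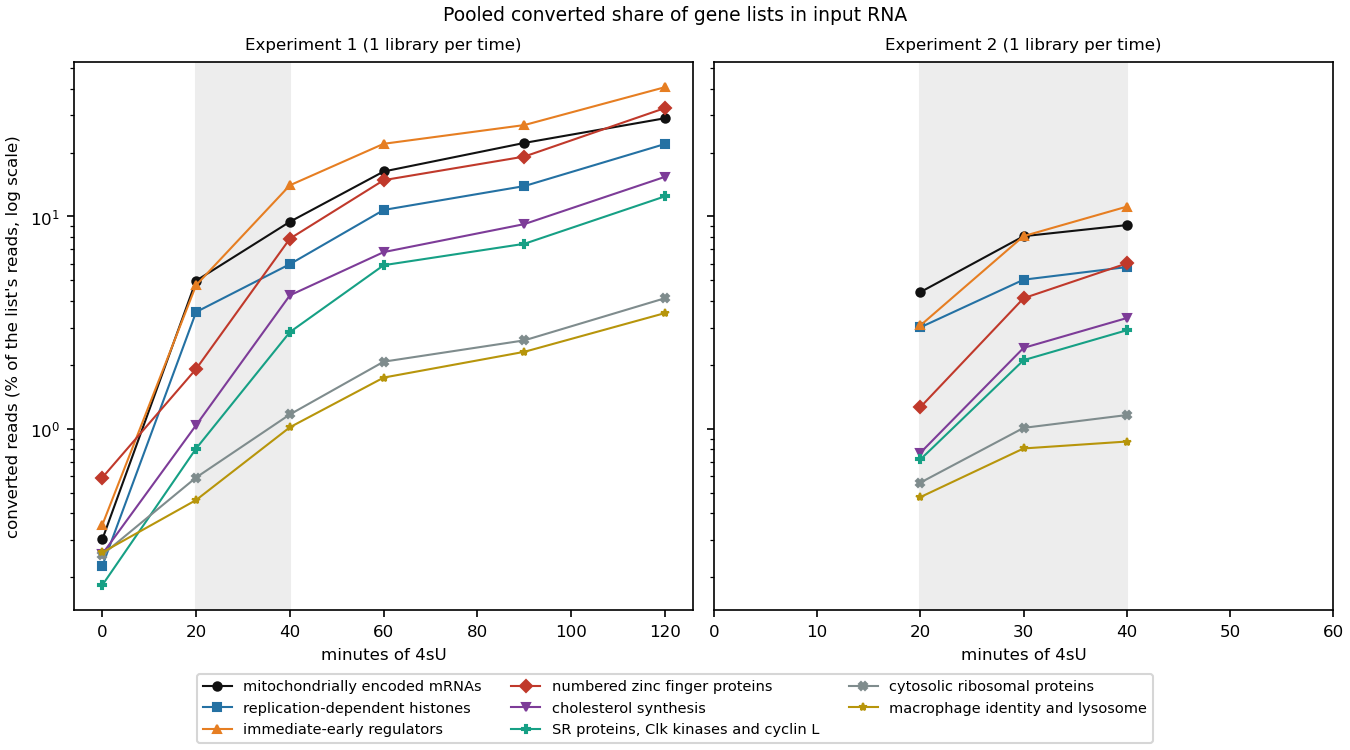
Pooled converted share of 8 gene lists (y, percent of the list's reads, log scale) against minutes of 4sU (x) in experiments 1 and 2, with 1 library per point and the 20 to 40 min interval shaded. The histone and mitochondrial lines are flatter between 20 and 40 min than the zinc finger line, which goes from 1.91% to 7.86% in experiment 1 and from 1.27% to 6.01% in experiment 2.

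Ribosomal protein mRNAs, long-lived and abundant, had low converted shares at both times. Of 74 tested, 39 nevertheless stood above the unlabelled library at 20 min, against 5.08% of all genes. Deep counts make this call easier to reach, and their part was not tested. Rplp0 had 28206 reads in the unlabelled input, where the median gene with a mean of at least 100 reads had 281. The list's median share at 20 min was 0.499%, under the 0.550% of all genes. By 40 min 1 had risen beyond the library and 6 lagged, against 7.98% and 2.43% of all genes, and 1 lagged after either subtraction of the unlabelled share. Without subtraction, 1 of 74 stood above the median gene. The pooled share was 0.590% and 0.559% at 20 min and 1.17% and 1.16% at 40 min, over 0.255% in the unlabelled library. The pooled rise less the unlabelled share was 2.73-fold and 2.99-fold. The list median was -0.13, and 0.24 after subtraction of the unlabelled share, where all genes had 0.50.

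Rplp0, the stalk protein P0, had 1.19% and 1.95% at 20 min and 1.68% and 1.85% at 40 min, over 0.752% unlabelled (log2 -1.13 ± 0.18, adjusted p = 2.8e-07). Rps25 (log2 -0.78, adjusted p = 0.00071), Rpl26 (-0.71, adjusted p = 0.0022) and Rpl21 (-0.69, adjusted p = 0.0046) lagged too. The annotation holds 6 pseudogenes named after Rpl26 and 15 after Rpl21, so their reads are uncertain.

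Other abundant housekeeping lists had medians under the 0.30 of all genes. Nuclear oxidative phosphorylation had a median of -0.22 (0 rose and 2 lagged of 73), glycolysis -0.28 (0 and 1 of 18) and proteasome subunits -0.06 (0 and 1 of 37), against 7.98% higher and 2.43% lower among all genes. Less the library-wide unlabelled share these medians were 0.28, 0.47 and 0.54, against 0.50 for all genes, so that the proteasome list moved above the median gene. Its pooled rise was 3.91-fold and 3.95-fold. That of the libraries was 3.24-fold, or 3.59-fold and 4.33-fold without mitochondrially encoded genes. Macrophage and lysosome genes had 1 riser and 4 that lagged of 40 (median -0.23), and 0 lagged after either subtraction (median 0.29 less the library-wide share). Lyz2, the macrophage lysozyme, went from 0.381% and 0.401% to 0.672% and 0.487%, over 0.227% unlabelled (log2 -0.82, adjusted p = 0.001). Ctsa, a lysosomal protease, changed by -1.29 (adjusted p = 3.6e-05). Actb, cytoplasmic β-actin, named here after its values were seen, went from 0.776% and 0.571% to 1.30% and 0.970% (log2 -0.56, adjusted p = 0.030).

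The lowest log2 changes of all belonged mainly to genes whose reads carried T-to-C changes without label. Of the 193 genes called lower, 94 had a converted share above 1% in the unlabelled input and footprint libraries pooled, against 11 of the 634 called higher and 587 of all 7944. Capns1, the small calpain subunit, had 3.23% in the unlabelled input, 3.19% and 3.17% at 20 min, and 2.62% and 2.35% at 40 min (log2 -1.71, adjusted p = 3.1e-05). Its share lay between 2.35% and 3.23% in these 5 libraries, and was lower at 40 than at 20 min in both experiments.

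Shares also did not rise for Usp48 (2.71% unlabelled, 3.38% and 2.59%, then 2.06% and 2.11%) and for Thoc6, a subunit of the THO export complex (3.46% unlabelled, 4.50% and 4.34%, then 2.70% and 3.15%). For both, each 40 min library lay under both 20 min libraries. Of the 12 lowest named by rule, 10 had an unlabelled share over 1% in input and footprint pooled, and 9 in the input alone. The exceptions by the pooled share were Ndrg2 (0.225% and 0.727% to 0.410% and 0.432%, log2 -1.84) and Adk, adenosine kinase (0.462% and 0.544% to 0.284% and 0.419%, log2 -1.76). With all genes over 1% left out, 601 genes were higher and 93 lower.

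Reads with at least 2 conversions made up 0.00288% of the unlabelled input, and they gave few single calls. Of 2771 genes with enough such reads, 6 rose beyond the library (0.217%) and 2 lagged (0.0722%), 0.289% in all, and 266 had an unadjusted p under 0.05. Of the risers 5 are described here: Mki67 (log2 2.90, adjusted p = 0.011), the translation factor Eif4g2 (2.40), fatty acid synthase Fasn (4.48), mismatch repair protein Msh6 (4.03) and topoisomerase Top2a (4.45). The linker histone Hist1h1a (-1.40) and mt-Co1 (-0.80), a subunit of cytochrome oxidase, lagged. These reads are a part of those used above, so they are no separate evidence for the direction. The names were chosen with these calls already in view.

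The 30 min library of experiment 2 placed most of the rise before 30 min. It had 1.72% converted reads, which is 77.3% of the way from the 20 to the 40 min share, where a steady rise would give 50.0%. Mitochondrially encoded mRNAs had reached 78.0% of their rise and histone mRNAs 73.3%. Zinc finger genes had reached 60.2%, NF-kB genes 61.5%, immediate-early genes 62.2%, splicing regulators 63.2% and cholesterol genes 64.0%. Mitosis genes (71.5%) and heterogeneous nuclear ribonucleoproteins (75.8%) lay nearer to the histones and the library. These percentages rest on the same 20 and 40 min libraries of experiment 2 as the rise itself. Each time is a single library here, so that library and time cannot be told apart. At 120 min in experiment 1, Nfkbia had 60.2%, Zfp207 22.0% and Hist1h3c 25.4% converted reads.

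Exon number went with the timing of label. Leaving out histone and mitochondrially encoded genes, 17.6% of 102 genes of 1 exon stood above the unlabelled library at 20 min. That share fell through 8.75% (2 exons), 7.45% (3 to 4), 5.59% (5 to 8) and 3.30% (9 to 16) to 2.30% of 1741 genes of over 16 exons. The pooled rise less the unlabelled share was 2.73-fold and 3.32-fold for genes of 1 exon. It was 3.43-fold and 4.11-fold for 5 to 8 exons, and 5.91-fold and 5.62-fold for over 16. These ratios lean on the subtraction, made with 1 unlabelled library. For over 16 exons the shares went from 0.540% and 0.523% to 1.495% and 1.344%, over 0.346% unlabelled. For 1 exon they went from 2.695% and 1.983% to 6.691% and 5.693%, over 0.383% unlabelled.

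The per-gene median less the unlabelled share went from -0.03 (1 exon) to 0.62 (9 to 16 exons) and 0.58 (over 16). Without that subtraction the order was another one, 0.39 for 1 exon, 0.69 for 2 and 0.07 for over 16. Turnover moved with exon number as well: the pooled share at 120 min was 23.3% for 1 exon and 6.55% for over 16. Its part in the result was not tested. Gene span showed a like pattern up to a point, with pooled rises of 2.61-fold and 3.27-fold to 5 kb, 4.97-fold and 5.18-fold for 20 to 80 kb, and 5.13-fold in both experiments over 80 kb.

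**Figure D5:**
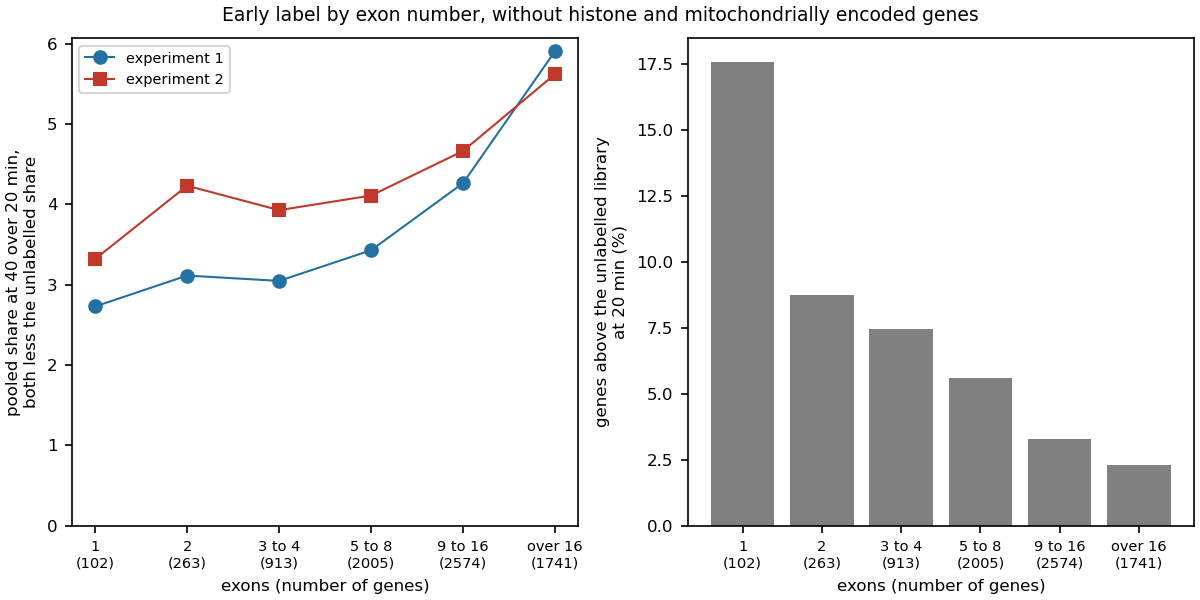
Left, ratio of the pooled converted share at 40 over 20 min, both less the unlabelled share (y, from 0), by exon number (x, genes in parentheses) in each experiment. Right, percent of those genes above the unlabelled library at 20 min, which falls from 17.6% for 1 exon to 2.30% for over 16.

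Total mRNA levels moved little over the same interval. With the experiments as a block, 6 genes were higher and 409 lower at 40 min of 10278 tested (0.0584% and 3.98%). Without the block edgeR called 0 and 0, with 5 genes at an unadjusted p under 0.05, and DESeq2 called 0 and 70. Fits that left out 1 of the 4 libraries also had no block, so they cannot show whether the calls depend on a single library. Levels of Nfkbia (log2 -0.19, adjusted p = 0.44) and Clk1 (-0.16, adjusted p = 0.60) did not pass the test while their converted shares rose.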

How the data were processed

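The deposited files hold raw read counts per gene, split by the authors by the number of T positions and of T-to-C conversions in a read. Alignment was with Bowtie 0.12.8 to mm10, per the submitters' processing notes, and the counting program was not given in the sources used here. Converted and unconverted reads of each library were fitted in edgeR 4.0.16 (quasi-likelihood, R 4.3.3), with experiment as a block, since the titles carry the experiment number. Offsets were the log library totals of each column. Genes needed a mean of 100 reads and 10 converted reads. Alternatives used limma 3.58.1 and DESeq2 1.42.0. Same-experiment deviations correlated at 0.0999 for conversion odds and 0.869 for levels. Simulated 20 and 40 min libraries held 7752 genes with 1 spread shared by all, and no experiment effect on single genes or separate unlabelled background. There the test called 36.0% of genes at a true log2 of 1, 72.0% at 2, 10.9% at -1 and 35.6% at -2. It called 0.0265% at 0. Falls were thus found less often than rises in the simulation, and its rates need not hold in these data. Library depth was 6822082 to 48139330 reads. Symbols matched GENCODE M21 for 13089 of 14002 genes. The members and gene lists were chosen with earlier results of these data known. Named genes were, by rule, the 12 highest shares at 20 min, up to 6 members of each list, and the 12 highest and 12 lowest changes. Those changes were called in the fit of all 4 libraries, with the same direction in both experiments and at least 50 converted reads. Some called genes are not reported here.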

Additional observations from a re-analysis of the deposited data

How the results depend on the processing

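The 634 higher and 193 lower genes changed with the test, centring, background and library. They were 225 and 440 centred on the median gene, 364 and 286 without mitochondrially encoded genes in the totals, 343 and 117 by limma on log2 odds with a pseudocount of 0.5, 139 and 89 with a pseudocount of 2, 290 and 128 per T position, and 1 and 0 by DESeq2 (median SE 0.823 against 0.54; cause not tested). After subtraction of the library-wide unlabelled share they were 115 and 4, with 38 and 2 shared with the calls above. After subtraction of the gene's own unlabelled share, chosen after seeing the data, they were 162 and 29. With only genes under 1% unlabelled, also chosen after seeing the data, 93 were lower. Leaving out 1 library gave 18 to 815 higher and 19 to 223 lower genes; fewest were left without the 20 min library of experiment 2, and 144 and 40 or 120 and 36 without the 40 min library of experiment 1 or 2. Without the replicate block they were 583 and 172, of which 548 and 168 were shared. For reads with at least 2 conversions the 6 and 2 calls became 25 and 18 without the replicate block, and 0 to 53 and 0 to 24 with 1 library left out. The 405 genes labelled at 20 min became 78 by DESeq2, 23 on at least 2 conversions and 197 to 229 with 1 library left out. Level calls were 0 and 0 without the replicate block and 0 and 70 by DESeq2. All fits with 1 library left out had no replicate block, so for levels they cannot show whether the calls depend on a single library. The library-wide log2 odds change of 1.32 was 1.71 over the median gene and 1.43 without mitochondrially encoded genes, and 1.31 to 1.34 by experiment. Among the named genes, Txnip reversed to -0.25 and -0.24 after subtraction of the library-wide and its own unlabelled share. Pkm reversed to 1.44 and 0.42 likewise, and Rpl26 to 4.42 after subtraction of its own unlabelled share, where its 20 min shares lay below that share. At 20 min, 13 tested genes had no converted read in either experiment; the parts of depth and of low label in this were not tested.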

Other observations

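Within several lists 1 member was called against the others that were called, or stood alone; these were picked after their values were seen. Rpl7l1, a ribosome-assembly factor related in sequence to a ribosomal protein, was the 1 riser of the 74 ribosomal protein genes (log2 0.97, adjusted p = 0.0048). Cd63, a lysosomal tetraspanin, was the 1 riser of the 40 macrophage and lysosome genes (log2 1.89, adjusted p = 0.023). Trim25, a ubiquitin ligase of the antiviral response, was the 1 interferon-response gene that lagged (log2 -1.06, adjusted p = 0.0013). It had 12 converted reads of 200 in the unlabelled input, and its shares were 6.45% and 5.54% at 20 min and 7.89% and 6.48% at 40 min. Hspe1, the mitochondrial co-chaperonin, was the 1 heat-shock gene that lagged (-0.80, adjusted p = 0.0045) beside 2 that rose. That was out of 15 tested, against 7.98% higher and 2.43% lower among all genes. Of 16 deadenylase-list genes, Tut1 rose (log2 1.30, adjusted p = 0.033) and 0 lagged, against the same shares of all genes.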
